A study of Homo sapiens with 6 samples.

Results

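IDO1, the enzyme that opens the breakdown of tryptophan along the kynurenine pathway, was followed together with 6 genes around it, TDO2, AFMID, KMO, KYNU, WARS1 and AHR, in A549 cells with and without a plasmid for NME2. The members were chosen by gene symbol, as every probe that the platform annotation gives to 1 of these 7 genes, which came to 13 probes of 47231 on the array. IDO1 brought the pathway into view because it was among the genes past the threshold in the comparison described here, so its difference is given as a description, and the threshold it passed is reported only as what chose it. Of the 13 probes, 10 were detected (detection p under 0.05 on at least 3 of the 6 arrays), as were 19394 probes in all. The samples were A549 cells, an established line from a human lung adenocarcinoma, collected 48 h after transfection. The control group had received pcDNA-MYC and the NME2 induced group pcDNA-NME2-MYC, which carries NME2 joined to a MYC tag. Each group held 3 replicates, which the submitters call biological. All cells, the controls included, had thus been transfected with plasmid DNA, and an untransfected group was not analysed here. Transfection reaches part of the cells, and an array of the whole culture cannot tell a change in every cell from a larger change in some of them.

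Tryptophan is an essential amino acid with several uses in the cell. IDO1 and TDO2 both catalyse the first step of its breakdown, giving N-formylkynurenine. IDO1 is known to be induced by interferons, above all interferon gamma, in dendritic cells, macrophages and many tumour cells, and TDO2 is known from the liver. AFMID, a formamidase, then releases kynurenine, which KMO hydroxylates and KYNU cleaves on the way to NAD. Kynurenine can also bind AHR, a transcription factor of the cytoplasm that moves to the nucleus on binding its ligand. WARS1 loads tryptophan onto its tRNA, and it too is known as an interferon-inducible gene. In the reference annotation (GRCh38.p14), IDO1 lies on chromosome 8, TDO2 on 4, AFMID on 17, KMO on 1, KYNU on 2, WARS1 on 14 and AHR on 7.

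The signal of a probe is given on the log2 scale after background correction with an offset of 16, which compresses the changes of dim probes. Log2 fold changes are the difference between group means, NME2 induced minus control. An array had from 19043 to 20726 detected probes. Probes for NME2 and its readthrough partner differed in direction. The NME1-NME2 probes had the lowest log2 fold changes of all detected probes, -1.99 and -1.89. NME2 probe ILMN_1657884 was also lower, at -0.59, without overlap between the groups. NME2 probe ILMN_2234873 was higher, at 1.04, without overlap, and ILMN_2414007 was at 0.26 with overlap. The remaining NME2 probe, ILMN_1694012, was detected on 0 arrays. Group names here follow the sample labels, and an induction of NME2 is not read from these probes. The keratins KRT7 and KRT8 and the aldehyde dehydrogenases ALDH1A1 and ALDH3A1, known from A549 cells, were bright, and of the 13 probes for A549 and lung epithelial markers between 10 and 12 were detected on an array. KRT18 was detected by 0 of its probes under the detection rule. Over all detected probes, the median log2 fold change was -0.0029.

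IDO1 signal was higher on every array labelled NME2 induced than on any control array, by both of its probes. The brighter probe, ILMN_3239965, read 7.41, 7.64 and 7.51 on control replicates 1, 2 and 3, and 8.69, 8.49 and 8.58 on the NME2 induced replicates. The groups were thus 0.85 apart on the log2 scale between the highest control and the lowest NME2 induced array. In the deposited linear intensities this probe stood at 154, 184 and 167 in control cells and at 396, 344 and 366 after pcDNA-NME2-MYC. The means were 7.52 ± 0.12 and 8.59 ± 0.097 (SD, n = 3 each), a 2.09-fold higher signal (log2 fold change 1.07, SE 0.10).

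The other IDO1 probe, ILMN_1656310, is annotated to the same transcript and gave nearly the same picture. It read 6.84, 7.04 and 7.05 on the control arrays and 7.88, 8.03 and 7.97 on the arrays labelled NME2 induced, again with no overlap. Its means were 6.98 ± 0.12 and 7.96 ± 0.079 (SD, n = 3 each), a 1.98-fold higher signal (log2 fold change 0.98, SE 0.099). The log2 fold changes of both probes differed by 0.08, less than the SE of either. Both probes were detected on all 3 control arrays, so IDO1 transcript was read in control cells as well. Ranked by log2 fold change among all detected probes, the IDO1 probes stood at places 5 and 11 from the top.

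**Figure D1:**
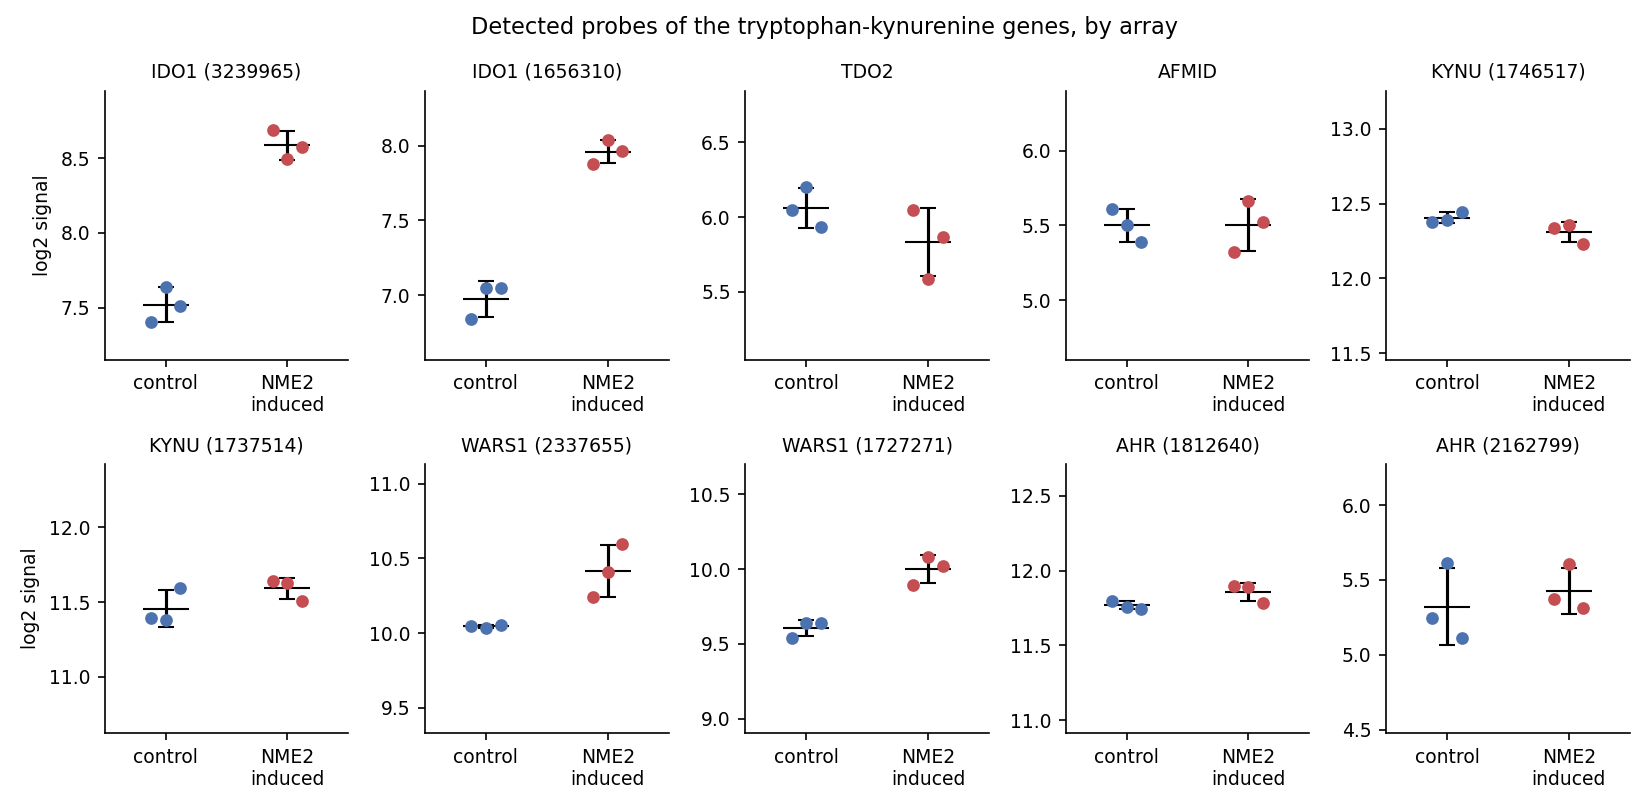
Log2 signal of each detected member probe on each array, with control arrays in blue and arrays labelled NME2 induced in red; horizontal bars are group means and error bars SD (n = 3). Every panel spans the same range on the log2 scale, and the IDO1 groups lie 0.85 and 0.83 apart at their closest points, while TDO2, AFMID and AHR overlap.

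Of the 10 detected member probes, 2 passed limma's adjusted threshold of 0.05 over all detected probes, both of them IDO1 and both higher. Among all detected probes, 0.0928% passed as higher and 0.144% as lower. As IDO1 was chosen for this difference, nothing is read from the count. The groups did not overlap for 4 member probes that were higher, those of IDO1 and WARS1, and for 1 that was lower, a KYNU probe; over all detected probes these shares were 10.1% and 10.8%. IDO1 fell short of the limma threshold when any 1 array was left out, although its log2 fold change stayed between 1.01 and 1.13 for the brighter probe and between 0.91 and 1.02 for the other.

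**Figure D2:**
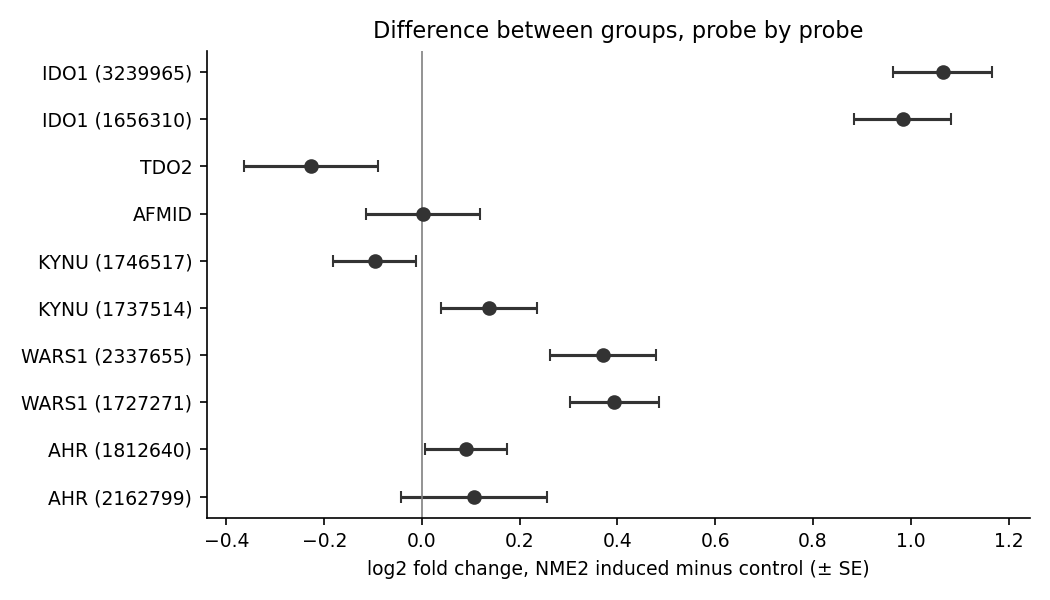
Log2 fold change (NME2 induced minus control) of each detected member probe, with SE as bars. The IDO1 probes lie at 1.07 and 0.98, the WARS1 probes at 0.37 and 0.39, and the other 6 probes between -0.23 and 0.14.

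IDO1 is also known from cells other than epithelium, and the markers of dendritic cells and macrophages were detected in part. Probes for 6 of 10 genes, CD14, CD68, LAMP3, CD86, ITGAM and CSF1R, met the detection rule, and 0 of the probes for PTPRC, CD74, LYZ and ITGAX did. Of the detected genes, LAMP3 is known from alveolar type II cells as well and CD68 from lysosomes of many cells. In this list 8 of 23 probes were detected, with a median log2 fold change of 0.17 and 0 past limma's adjusted threshold. The groups did not overlap for 6 of the 8, all higher on the arrays labelled NME2 induced (10.1% of all detected probes), and 3 were higher and 0 lower at an unadjusted p under 0.05 (6.28% and 7.32% of all detected probes). These 6 were the probes of LAMP3 at 0.31 and 0.29, CD86 at 0.27, CD14 at 0.23 and CD68 at 0.11 each. The CD86 probe was detected on 1 control array and 3 of the others. It thus met the detection rule only through the group where it was high, so nothing is read from its place in these counts. LAMP3 and CD68 enter with more than 1 probe each, so the 6 probes are not 6 separate genes. The linear intensities of the 23 probes summed to between 4578 and 4702 on control arrays and to between 5085 and 5310 on arrays labelled NME2 induced. CD68 and LAMP3 gave most of that sum. The part of these markers in the IDO1 difference was not tested. For T cells and NK cells, 1 of 10 probes met the rule, with sums from 40.7 to 53.8 on control arrays and from 26.3 to 30.4 on the others. These sums include the probes that did not meet the rule. No probe of this list exceeded an intensity of 20.6, so the sums lie near background and no fall is read from them. The detected probe, of CD8A, had a log2 fold change of -0.065. IFNG, which encodes interferon gamma, was not detected under the rule.

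TDO2, which catalyses the same step as IDO1, was dim and did not pass. Its detected probe, ILMN_1716859, read 6.05, 6.20 and 5.93 on the control arrays and 6.05, 5.59 and 5.86 on those labelled NME2 induced. The groups overlapped, NME2 induced replicate 1 being level with control replicate 1. The log2 fold change was -0.23 (95% interval -0.55 to 0.094, limma adjusted p = 0.509), so that a fall to 0.685 of the control signal or a rise to 1.07 times it would both lie within the interval. The other TDO2 probe, ILMN_2172091, was detected on 0 arrays. Among hepatocyte markers, ALB and SERPINA1 had 1 detected probe each, and APOA1, TTR and CYP3A4 had 0.

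The next steps were read in part. AFMID was dim, at 5.61, 5.51 and 5.39 in control cells and 5.32, 5.67 and 5.52 in cells labelled NME2 induced by probe ILMN_1707551, with group means of 5.50 each (log2 fold change 0.0015, 95% interval -0.27 to 0.27, limma adjusted p = 0.997). Its other probe, ILMN_2095653, was above background on control replicate 2 alone. KMO has 1 probe here, ILMN_1730917, and was above background on 0 of 6 arrays, so a level or a change of KMO was not detectable on these arrays.

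KYNU, which cleaves kynurenine and 3-hydroxykynurenine, was bright, and its probes had differences of opposite sign, neither of which passed. Probe ILMN_1746517 read 12.38, 12.39 and 12.45 on the control arrays and 12.34, 12.36 and 12.23 on the others. These groups did not overlap, but were only 0.018 apart (log2 fold change -0.097, 95% interval -0.30 to 0.10, limma adjusted p = 0.651). Probe ILMN_1737514 read 11.39, 11.38 and 11.60 on the control arrays and 11.64, 11.63 and 11.51 on those labelled NME2 induced. Here control replicate 3 lay above the lowest NME2 induced array (log2 fold change 0.14, 95% interval -0.093 to 0.37, limma adjusted p = 0.581). The platform annotation ties the probes to different transcripts of the gene, which could thus be read unequally.

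The difference between both KYNU probes was therefore taken on each array, a comparison chosen after the values were seen. It was 0.98, 1.01 and 0.85 on the control arrays and 0.70, 0.73 and 0.72 on the arrays labelled NME2 induced, without overlap. The change was -0.23 (95% interval -0.51 to 0.042), with a 2-sided exact permutation p of 0.1, the smallest that 3 arrays against 3 can give. Fitted over the 2908 genes with at least 2 detected probes, of which 17.2% had differences that did not overlap between the groups and 0.275% passed, it did not pass (limma adjusted p = 0.526). For IDO1, WARS1 and AHR, the same difference between probes overlapped, with changes of 0.08, -0.023 and -0.017.

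WARS1, the tryptophanyl-tRNA synthetase, had higher signal on each array labelled NME2 induced than on any control array by both probes, without passing. Probe ILMN_1727271 read 9.54, 9.64 and 9.64 on the control arrays and 9.90, 10.08 and 10.02 on the others. The means were 9.61 ± 0.056 and 10.00 ± 0.094 (SD, n = 3 each), a 1.31-fold difference (log2 fold change 0.39, 95% interval 0.18 to 0.61, limma adjusted p = 0.163). Probe ILMN_2337655, tied to another transcript of the gene, read 10.05, 10.03 and 10.06 in control cells and 10.24, 10.41 and 10.59 in cells labelled NME2 induced. The control arrays lay close together while the NME2 induced arrays spread, at means of 10.05 ± 0.012 and 10.42 ± 0.18 (SD, n = 3 each). This came to a 1.29-fold difference (log2 fold change 0.37, 95% interval 0.12 to 0.62, limma adjusted p = 0.231). Both WARS1 probes passed limma's threshold when eBayes used a mean trend and robust variances (adjusted p = 0.00415 and 0.0105), and ILMN_1727271 also with an offset of 50 under normexp and under neqc (adjusted p = 0.0299 and 0.0432), within ranges over all alternatives of 0.00415 to 0.363 for ILMN_1727271 and of 0.0105 to 0.433 for the other.

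Promoter windows of WARS1 and KYNU are shown, WARS1 as the member other than IDO1 whose groups did not overlap by both probes, and KYNU as a bright member without such a difference. They were taken from RefSeq (GRCh38.p14) and run from 250 bases before an annotated start to 50 after it. Searched on both strands were the core of the interferon-stimulated response element, which is GAAA, any 2 bases and GAAA again, and TTCNNNGAA, the core of the element that STAT dimers bind, which reads the same on both strands. Capitals mark a match.
WARS1, window 1, minus strand, chr14:100376278-100376577: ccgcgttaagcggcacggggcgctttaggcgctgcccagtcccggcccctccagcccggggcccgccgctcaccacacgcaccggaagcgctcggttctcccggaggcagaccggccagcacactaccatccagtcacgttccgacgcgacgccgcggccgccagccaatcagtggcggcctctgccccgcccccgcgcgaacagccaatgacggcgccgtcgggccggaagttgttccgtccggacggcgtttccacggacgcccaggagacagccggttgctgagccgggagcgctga
WARS1, window 2, minus strand, chr14:100375298-100375597: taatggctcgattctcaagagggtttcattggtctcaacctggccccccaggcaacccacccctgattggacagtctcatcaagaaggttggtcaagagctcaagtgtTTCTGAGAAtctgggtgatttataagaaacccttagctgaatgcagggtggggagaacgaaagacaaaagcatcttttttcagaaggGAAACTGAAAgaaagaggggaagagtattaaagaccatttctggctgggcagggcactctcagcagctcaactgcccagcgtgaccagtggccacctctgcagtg
KYNU, plus strand, chr2:142877414-142877713: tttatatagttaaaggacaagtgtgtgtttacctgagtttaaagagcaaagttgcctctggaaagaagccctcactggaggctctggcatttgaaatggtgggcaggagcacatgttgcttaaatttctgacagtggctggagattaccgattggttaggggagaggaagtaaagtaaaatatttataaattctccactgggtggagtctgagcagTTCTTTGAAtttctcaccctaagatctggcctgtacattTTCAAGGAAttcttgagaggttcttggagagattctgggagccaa

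WARS1 window 1 held neither motif. WARS1 window 2 held the response element core once, beginning 55 bases before the start, and TTCNNNGAA once, beginning 142 bases before it. KYNU held TTCNNNGAA beginning 34 bases before the start and once more just after it, and no match to the response element core. Of all 35116 promoter windows of the same length, 3.57% held the response element core and 7.66% held TTCNNNGAA on either strand. The windows of TDO2, AFMID, KMO and AHR held neither. The IDO1 promoter was not analysed here. The matches do not overlap, and they describe the letters in these windows only.

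AHR, the receptor for kynurenine, was bright by 1 probe and dim by the other, and neither passed. Probe ILMN_1812640 read 11.80, 11.76 and 11.75 on the control arrays and 11.90, 11.89 and 11.79 on those labelled NME2 induced. NME2 induced replicate 3 lay just below control replicate 1 (log2 fold change 0.09, 95% interval -0.11 to 0.28, limma adjusted p = 0.672). Probe ILMN_2162799 ranged from 5.11 to 5.61 in control cells and from 5.31 to 5.60 in the others, a full overlap (log2 fold change 0.11, 95% interval -0.24 to 0.46, limma adjusted p = 0.789). An AHR change beyond a rise of 1.22-fold lies outside the interval of the brighter probe.

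Genes around the pathway were read through 8 lists, which hold 75 detected probes of 64 genes. By limma 0 of them passed the adjusted threshold, where 0.237% of all detected probes did. At an unadjusted p under 0.05, 6 were higher and 5 lower, against 6.28% and 7.32% of all detected probes. The lower ones include IRF8, which entered the fit only through the control arrays, so nothing is read from its place there. A SOCS3 probe near background is among the higher ones. With a mean trend and robust variances in eBayes 4 passed. The median log2 fold change of the 75 probes was -0.022.

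The other enzymes of kynurenine and NAD synthesis had 14 detected probes of 12 genes, with a median log2 fold change of 0.017. NAMPT, which makes NAD from nicotinamide rather than from tryptophan, was the member with the smallest p. Its probe ILMN_1753111 read 8.32, 8.10 and 8.25 on the control arrays and 7.74, 7.93 and 7.89 on the arrays labelled NME2 induced (log2 fold change -0.37, SE 0.10, limma adjusted p = 0.208). The other NAMPT probe was at -0.27 (limma adjusted p = 0.322), and the groups did not overlap by either. NNMT, which methylates nicotinamide, was at 0.24 (limma adjusted p = 0.298). The kynurenine aminotransferase KYAT3 was at -0.24 by a dim probe detected on 2 of 3 arrays labelled NME2 induced and at 0.016 by its brighter probe (limma adjusted p = 0.504 and 0.957), with overlap for both. The later enzymes HAAO, QPRT and ACMSD were not detected.

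Among carriers of tryptophan and related amino acids, 5 probes of 4 genes were detected, with a median of -0.030. SLC3A2, the heavy chain that partners SLC7A5 in the large neutral amino acid transporter, had the lowest value of all 75 by 1 dim probe, ILMN_1679041. This probe read 5.96, 5.79 and 5.69 on the control arrays and 5.10, 5.20 and 4.55 on the others, where it was detected on 2 of 3 (log2 fold change -0.87, SE 0.18, limma adjusted p = 0.130). The bright SLC3A2 probe, ILMN_1726456, was at 0.11 (limma adjusted p = 0.657), and SLC7A5 itself at -0.097 and the cystine carrier SLC7A11 at -0.030. Of the serotonin and other tryptophan enzymes MAOA alone was detected, at -0.11 (limma adjusted p = 0.708).

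The partners of AHR had a median of -0.11 over 7 probes of 5 genes. The chaperone HSP90AA1 was at -0.25 by the probe with the smallest p (limma adjusted p = 0.278), with other probes at 0.23 and -0.073. HSP90AB1 and the co-chaperone PTGES3 were at -0.15 each. The AHR targets had a median of -0.062 over 5 probes of 4 genes, all below 0, beside a median of -0.0029 over all detected probes. They were the quinone reductase NQO1 at -0.17 and -0.071, the aldehyde dehydrogenase ALDH3A1 at -0.062, the ADP-ribosyltransferase TIPARP at -0.061 and the cytochrome CYP1B1 at -0.019. By limma 0 of these reached an unadjusted p under 0.05. CYP1A1, the best known target of AHR, was not detected, and neither were CYP1A2, AHRR, UGT1A6 and LRAT.

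The other aminoacyl-tRNA synthetases set the WARS1 values beside their family. Their 18 detected probes of 18 genes lay between -0.17 for RARS1 and 0.12 for SARS1, with a median of -0.019, so that both WARS1 values, 0.37 and 0.39, lay above all of them. RARS1 and LARS1 were at -0.17 and -0.14 (limma adjusted p = 0.464 and 0.510), and by limma 0 of the 18 reached an unadjusted p under 0.05. The kinase GCN2 (gene EIF2AK4), the sensor of uncharged tRNA, and genes that answer it had a median of 0.033 over 15 probes of 12 genes. The transcription factors ATF4 and ATF3 were at 0.23 and 0.28 by their probes with the smallest p (limma adjusted p = 0.311 and 0.334), while the brightest ATF4 probe was at 0.086. TRIB3, a pseudokinase of the same response, was at 0.13, and the asparagine synthetase ASNS at -0.095.

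**Figure D3:**
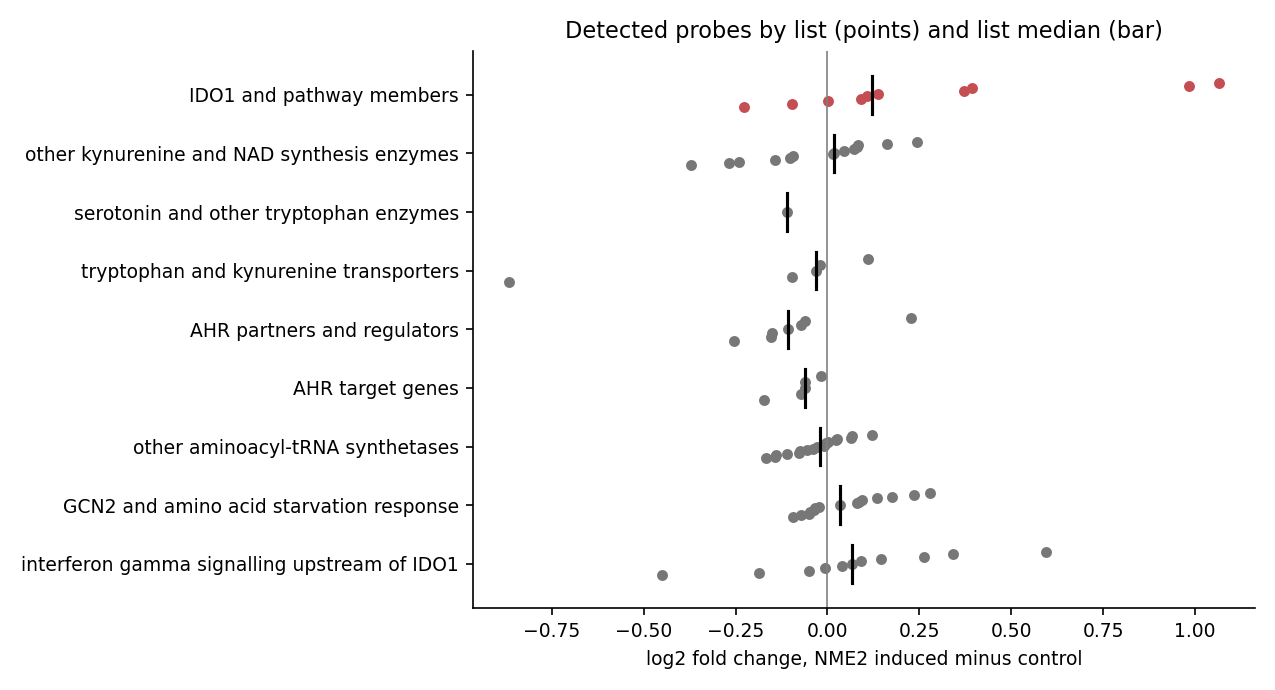
Log2 fold change (NME2 induced minus control) of each detected probe of IDO1 and the pathway members (red) and of the 8 lists around them (grey), with the list median as a bar. The highest list probe lies at 0.59 and the lowest at -0.87; the 18 synthetase probes stay between -0.17 and 0.12.

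Factors that act between interferon gamma and the IDO1 promoter had a median of 0.066 over 11 probes of 9 genes. IRF1, a transcription factor known to induce IDO1, read 8.65, 8.77 and 8.70 on the control arrays and 9.01, 9.16 and 8.97 on the others, without overlap (log2 fold change 0.34, SE 0.093, limma adjusted p = 0.206). IRF8, a related factor of myeloid cells, was detected on all 3 control arrays and on 0 of the others, where its signal was at least 1.26-fold lower (means 5.17 and 4.72). It entered the fit only through the control arrays, where it was high, so no test is given for it. The feedback inhibitor SOCS1 was at 0.26 (limma adjusted p = 0.339). Its relative SOCS3 was at 0.59 by a probe detected on 1 control array and 2 arrays labelled NME2 induced and at 0.09 by its other probe, with overlap for both. The receptor chain IFNGR1 was at 0.039 and the kinase JAK1 at -0.19 (limma adjusted p = 0.889 and 0.437).

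The 5 genes whose signal followed the brighter IDO1 probe most closely over the 6 arrays were LRPAP1, TRAFD1, MTMR11, IFITM1 and SPSB1, with Pearson r of 0.998, 0.997, 0.993, 0.993 and 0.992. IFITM1 is an interferon-induced antiviral membrane protein, and TRAFD1 a regulator of innate immune signalling. As the arrays form 2 groups, such values mostly carry the difference between the groups, and they are given as a description. IFITM1 read 10.82, 10.86 and 10.87 on the control arrays and 11.25, 11.23 and 11.26 on those labelled NME2 induced, a log2 fold change of 0.40. TRAFD1 was at 0.75, SPSB1 at 0.47, MTMR11 at 0.36 and LRPAP1 at 0.28. Among the members, the other IDO1 probe had an r of 0.978 and the WARS1 probes had 0.928 and 0.835.

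**Figure D4:**
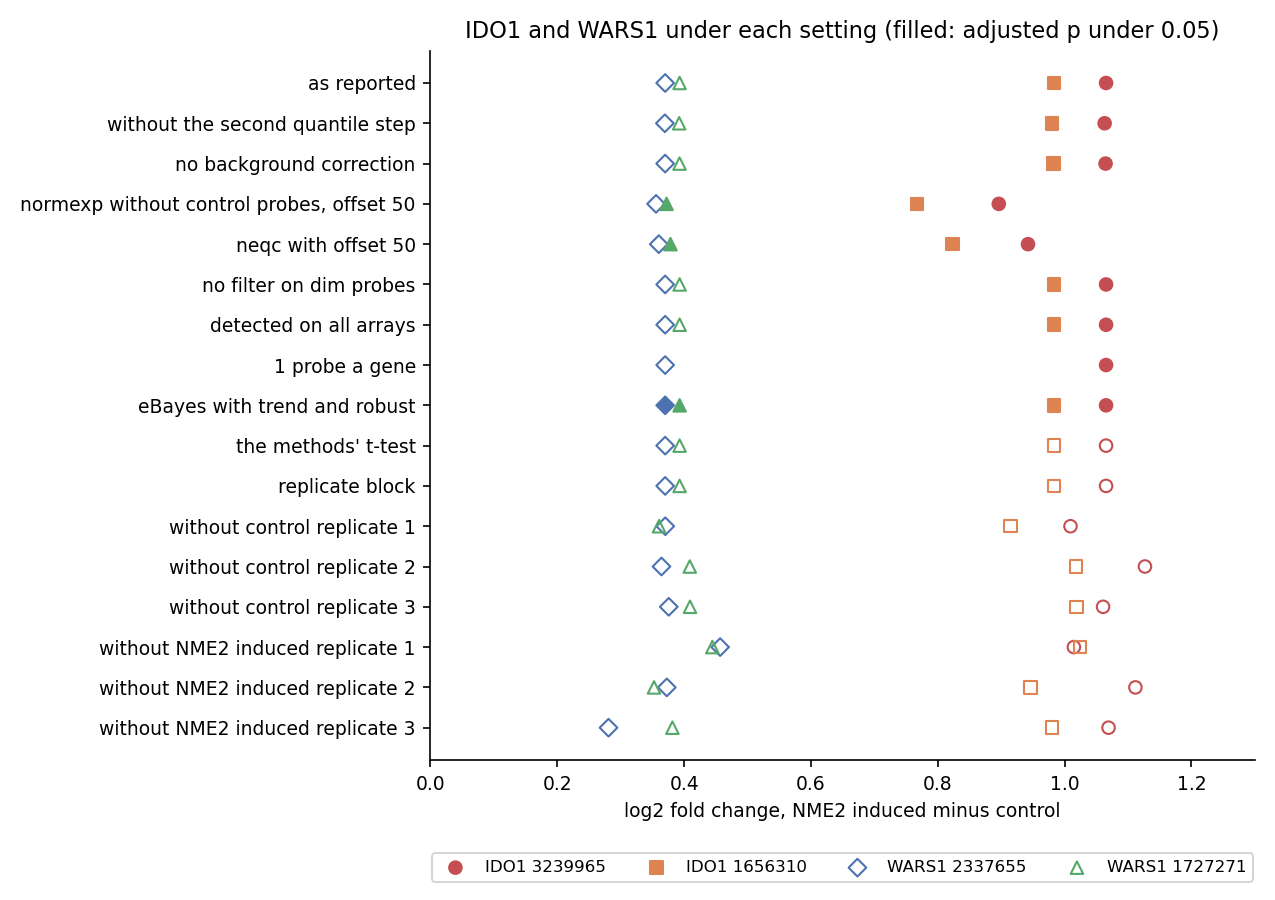
Log2 fold change (NME2 induced minus control) of the IDO1 and WARS1 probes under each setting, filled where the adjusted p was under 0.05. The IDO1 probes stay between 0.77 and 1.13 and the WARS1 probes between 0.28 and 0.46, while the filled marks depend on the setting.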

How the data were processed

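Total RNA of 3 control and 3 NME2 induced replicates was read on 1-colour Illumina bead arrays (Human HT-12 v4). Groups and replicate numbers came from the sample labels. The authors exported a signal and a detection p-value per probe from BeadStudio (version not given in the sources used here). Both deposited tables hold the same linear intensities; 1 is called not normalized, but all 6 columns share their minimum of -44.94 and their maximum, so the deposited intensities appear background-subtracted and quantile-normalized. Total brightness can therefore not be compared between arrays, and the alternative of using the other table gave no other values. Detection p-values are used as deposited.

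Signals were processed with neqc of limma 3.58.1 in R 4.3.3 (background from the detection p-values, offset 16, quantile normalization, log2). Probes with detection p under 0.05 on at least 3 of 6 arrays were kept. Groups were compared with lmFit and eBayes, 2-sided, with Benjamini-Hochberg adjustment over all 19394 detected probes and a threshold of 0.05. SE and 95% intervals are moderated. The fit was tested on simulated data. The number of arrays limits the precision, with a median SE of 0.12. Gene symbols came from the platform annotation and were matched by gene identifier to RefSeq for all 7 members. A probe not detected on any array of 1 group has only a bound, set against the higher of its own value and the lowest detected signal per array. Named are all member probes, up to 3 genes with the smallest p of each list, and the 5 genes most correlated with IDO1; further genes were named after their values were seen. Members and lists were chosen with earlier results of these data known. No slide is named in the labels, so slide was not examined as a batch.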

Additional observations from a re-analysis of the deposited data

How the results depend on the processing

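The direction of both IDO1 probes and of both WARS1 probes held under every alternative run. The IDO1 call did not. Under the methods' t-test and with the replicate block, the log2 fold changes of 1.07 and 0.98 no longer passed. That t-test was unmoderated with a pooled variance, and the Benjamini-Hochberg adjustment over all detected probes was added here. It thus does not repeat a call made without adjustment. With 1 array left out, in a range of 1.01 to 1.13 and of 0.91 to 1.02, the IDO1 call was lost in all 6 fits. The number of member probes past the threshold was 2, fell to 1 with 1 probe a gene, where each gene enters once, to 0 with the methods' t-test, the replicate block and any 1 array left out, and rose to 4 with a mean trend and robust variances in eBayes. Over all detected probes 46 passed. This rose to 476 with trend and robust options, 278 with normexp and an offset of 50, 235 with neqc and an offset of 50, and 116 for probes detected on all arrays, and fell to 29 without a filter, 28 with 1 probe a gene, 6 by the methods' t-test, 3 with the replicate block and 3 to 6 with 1 array left out. Of the list probes 1 passed with either offset of 50 (SLC3A2) and 4 with trend and robust options (NAMPT, SLC3A2, HSP90AA1 and IRF1). AFMID, at 0.0015, turned to -0.012 without the second quantile step and ranged from -0.080 to 0.091 with 1 array left out. Both WARS1 probes kept values of 0.28 to 0.46 and passed only under the settings given with them. Fewer arrays are fitted with 1 left out, and the cause of the other differences was not tested.

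No pairing by replicate number was seen: the deviations of same-numbered arrays from their group means correlated at 0.020, -0.023 and -0.022. With 3 arrays a group this is a weak check, and a shared replicate effect could be missed. The block changed no call among the members other than that of IDO1. TDO2, AFMID, KMO and the dim AHR probe lay near the background, where these arrays allow no firm statement. Starting from the other deposited table was not run as a fit, because its values are the same.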
